A study of Caenorhabditis elegans with 2 samples.

Results

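Chromosome III of Caenorhabditis elegans carried 796 of the 3782 peaks called for the chromodomain protein MRG-1 in a genome-wide binding list. Membership was decided by chromosome alone: every peak that the list placed on III was kept, whatever its width or score. Binding had been measured with ChIP-seq (chromatin immunoprecipitation and sequencing), in which DNA crosslinked to a protein is recovered with an antibody and stretches with many reads are called as peaks. The study held 1 MRG-1 ChIP library and 1 library of input DNA, and the list belonged to the ChIP library, so there were no replicates. Both libraries came from whole hermaphrodites of the strain fem-2(b245), genotype fem-2(b245)III, grown at 20 °C and labelled as young adults containing a germline. The labels differ on the stage, since their growth protocol has the animals harvested when gravid, which comes after young adulthood. The strain carries a temperature-sensitive allele of fem-2, a sex determination gene that itself lies on III, and no strain with normal fem-2 was part of the comparison. The ChIP used a polyclonal rabbit antibody, affinity purified, against a stretch of 82 residues of MRG-1. Whole animals grown in bulk cultures were ground up, so peaks of germ cells and of somatic cells cannot be told apart.

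MRG-1 is the worm member of the MRG15 family. In yeast and mammals, relatives of this protein recognise nucleosomes methylated on lysine 36 of histone H3, a mark laid down over transcribed genes, and belong to histone acetyltransferase and deacetylase complexes. In the worm, maternal MRG-1 is needed for primordial germ cells to survive, and the protein takes part in keeping X-linked genes low in germ cells and in the pairing of homologous chromosomes in meiosis. Worm autosomes have a central region, rich in essential and widely expressed genes and poor in meiotic crossovers, between arms that carry more repeats and more crossovers. The description below follows III from its left to its right end with that layout in mind. Peaks were not assigned to genes.

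In the comparison of III with the other 4 autosomes, MRG-1 peaks lay densely on III, at 57.8 per Mb, and covered 4.01 Mb, or 29.1% of the 13.8 Mb up to the last peak. Throughout, a chromosome is measured up to its last called base. On I, II, IV and V together the peaks stood at 40.7 per Mb and covered 19.3%. The density on III was 1.42 times that of those 4 (95% interval 1.31 to 1.54; exact binomial test, two-sided, p = 3.38e-17), and the covered share was 1.51 times as large. The single autosomes gave different ratios. Against I the density ratio was 0.955 (interval 0.868 to 1.05; exact binomial test, adjusted p = 0.357), and against II, IV and V it was 1.35, 1.54 and 2.10 (exact test, adjusted p of 1.96e-08, 4.80e-16 and 7.59e-42 over the 4 tests). III was second of the 5 autosomes in density, and its difference from I was within counting error. Intervals and p-values here and below treat peaks as independent. Peaks cluster and come from 1 library, so the intervals are too narrow, the p-values are too small, and both describe this list only.

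Against the other 4 autosomes summed, and over whole chromosomes, the higher coverage of III went with more peaks rather than with wider ones. The median peak on III was 2942.5 bp wide and the median peak of the other 4 autosomes 2913 bp. Mean widths were 5034 and 4746 bp, a ratio of 1.06, beside the density ratio of 1.42. By single autosome the mean width ratio was 1.03 against I, 1.02 against II, 1.03 against IV and 1.20 against V. The quartiles on III were 1573 and 6431 bp, against 1527.5 and 6341 bp on the others. Peaks of at least 10 kb made up 13.3% of the peaks on III (106 of 796, exact interval 11.0 to 15.9%) and 12.2% on the others (340 of 2791, 11.0 to 13.5%).

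When III was divided into 3 equal parts of 4.59 Mb, called left, middle and right, these differed both in the number and in the breadth of their peaks. The left held 260 peaks, the middle 204 and the right 332, which is 56.6, 44.4 and 72.3 peaks per Mb. Coverage followed another order: 20.1% of the left, 37.6% of the middle and 29.6% of the right lay under peaks. The middle therefore had the fewest peaks and the most covered sequence, holding 25.6% of the peaks and 43.1% of the covered length. The density of the middle was 0.689 times that of both outer parts (interval 0.585 to 0.809; exact binomial test, two-sided, p = 7.43e-06 after Benjamini-Hochberg adjustment over the 5 autosomes). Its covered share was 1.51 times theirs.

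**Figure D1:**
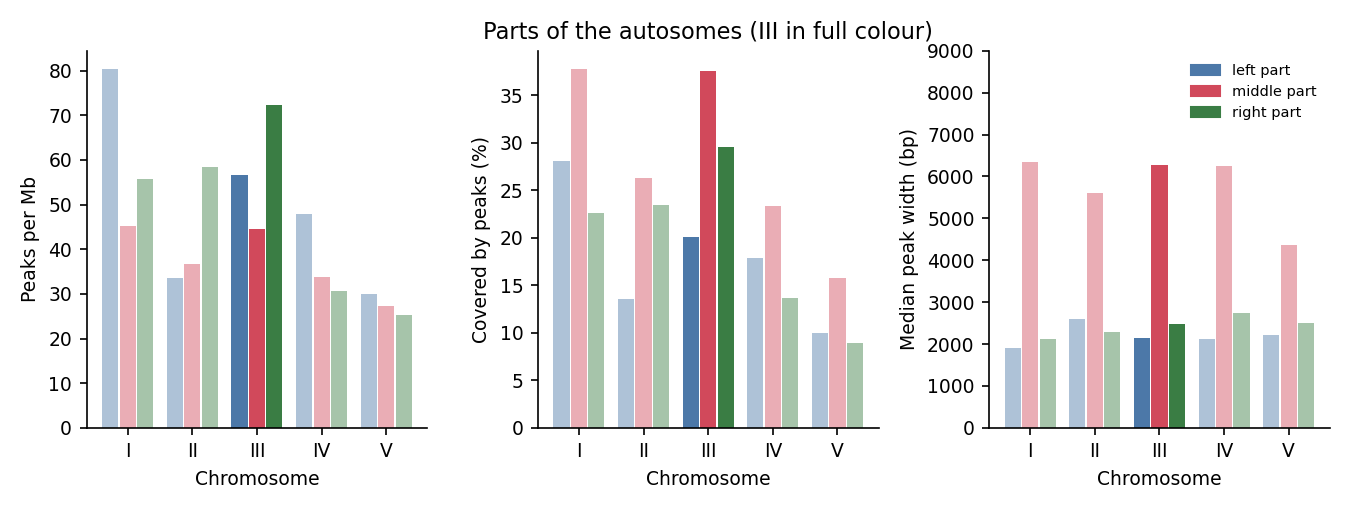
Peaks per Mb, covered share in percent and median peak width in bp for the left, middle and right parts of each autosome, with III in full colour and the others paler. On III the middle bar is the lowest for density (44.4 per Mb) and the highest for coverage (37.6%) and width (6269.5 bp), and the right part exceeds the left in density (72.3 against 56.6 per Mb).

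The same contrast on the other autosomes had density ratios of 0.666 on I, 0.797 on II, 0.860 on IV and 0.990 on V, and covered-share ratios of 1.49, 1.42, 1.48 and 1.67. The split of peaks between middle and outer parts did not differ detectably between III and the other 4 summed (odds ratio 0.858; two-sided Fisher's exact test, p = 0.0978). The low count in the middle of III depended on which peaks were counted. With peaks joined across gaps under 1 kb, the ratio was 0.865 and did not pass (exact binomial test, adjusted p = 0.214). Among the upper 50% of the list by score the direction turned, to 1.24 (exact binomial test, adjusted p = 0.0328). Score rises with width (Spearman rho 0.824 over the 796 peaks of III). The median score was 290.0 on the left, 2113.2 in the middle and 408.8 on the right. Why the direction turned was not tested.

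Width separated the middle of III from its flanks. The median peak was 6269.5 bp in the middle, 2135.5 bp on the left and 2471 bp on the right. The middle exceeded both outer parts together by 3987.5 bp, and by 1792 bp among the upper 50% of the list by score. Quartiles were 3436 and 11454 bp in the middle, 1363 and 4403 bp on the left, and 1419 and 4973 bp on the right. Peaks of under 1.5 kb numbered 87 on the left and 89 on the right but 8 in the middle, which is 33.5%, 26.8% and 3.92% of the peaks there. Peaks of 5 kb or more formed 60.3% of the peaks in the middle (exact interval 53.2 to 67.1%), 22.3% on the left (17.4 to 27.9%) and 83 of 332 on the right (20.4 to 30.0%). On the summed other autosomes these shares were 55.4%, 21.4% and 26.1%, with median widths of 5536, 2098 and 2335.5 bp. Peaks of 10 kb or more formed 30.9% of the middle of III and 23.6% of the other middles. On the left these shares were 5.77% and 6.88%, and on the right 8.43% and 8.39%. By single autosome the middles had 32.2% on I, 27.4% on II, 20.3% on IV and 13.2% on V. Their median widths, in that order, were 6356, 5599.5, 6260 and 4371 bp. The middle of III was thus exceeded by that of I in both.

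**Figure D2:**
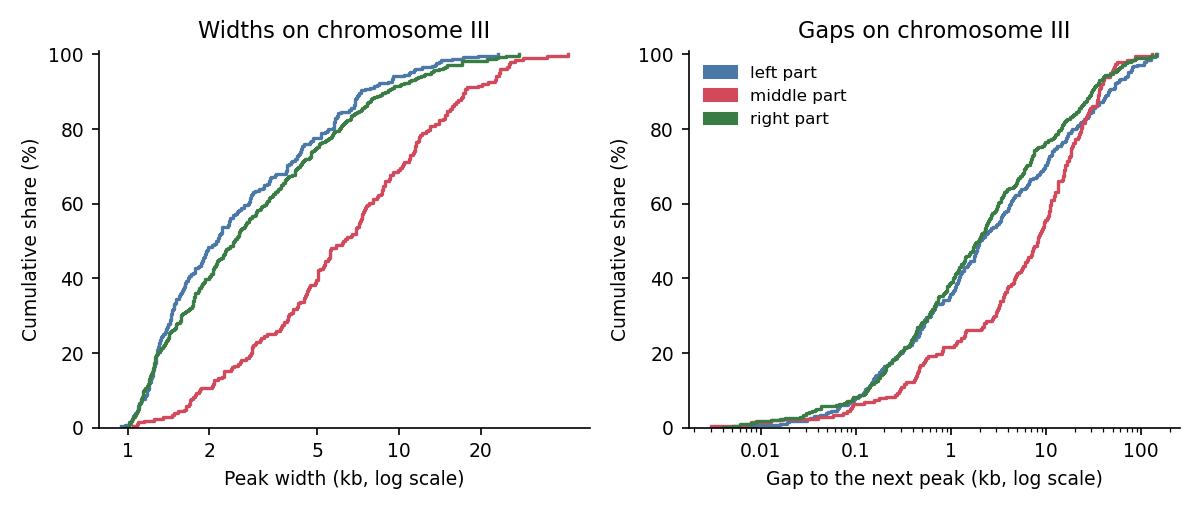
Cumulative share in percent of peak widths (left panel) and of gaps between neighbouring peaks (right panel), both in kb on log scales, for the left, middle and right parts of III. The curve of the middle lies to the right in most of both panels, with a median width of 6269.5 bp and a median gap of 8150 bp, while the outer parts have median gaps of 1998 and 1935.5 bp.

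Broad peaks held most of the covered length of the middle. Of the 106 peaks of at least 10 kb on III, 63 lay in the middle, 28 on the right and 15 on the left. They held 61.8% of the summed peak width in the middle, 31.7% on the right and 23.0% on the left. Of the 24 peaks of at least 20 kb, 17 were in the middle, 6 on the right and 1 on the left. When the widest 5% of the whole list was left out, 53 peaks of III went, 36 of them from the middle, and coverage became nearly equal, at 21.27% in the middle and 21.28% in the outer parts. The same step left the middle of the other autosomes with covered-share ratios of 1.04 on I, 1.21 on II, 1.32 on IV and 1.47 on V. These ratios stand side by side as values, and their differences were not tested.

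The 10 widest peaks of III ran from 24902 to 41889 bp, and their scores, from 68.17 to 1707.99, all stayed below the 3100 that many narrower peaks had. The widest, 41889 bp from 4906026 to 4947914 in WS220 coordinates, had a score of 68.17. It was followed by peaks at 6362159 to 6397275 (35117 bp), 5689180 to 5717766 (28587 bp) and 9538593 to 9566330 (27738 bp). Further members lay at 5002840 to 5029616, 6421514 to 6447169, 7145767 to 7171228, 8887227 to 8912621 and 6447178 to 6472245, all in the middle. The last of the 10, at 13285305 to 13310206, was close to the right end. The widest peak of each other autosome measured 33716 bp on I, 31590 bp on II, 30324 bp on IV and 24575 bp on V. At the other extreme, the narrowest peaks of III were 943 bp (3858515 to 3859457), 975 bp (3299469 to 3300443) and 986 bp (11328271 to 11329256), followed by 2 of 1007 bp at 10609627 and at 12741444. All 5 lay in the outer parts and scored between 50.62 and 63.27.

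High scores were found mainly among peaks of 5 kb or more. The score is the authors' own value per peak, with no scale stated. Of the peaks on III, 167 had a score of 3100 or more, of which 159 had exactly 3100. None of the 184 peaks under 1.5 kb reached that score, which allows a share of up to 1.63% (3 counts of 184). It was reached by 6.61% of those from 1.5 to 5 kb, 61.4% of those from 5 to 10 kb and 44.3% of those of 10 kb or more. In the middle of III, 80.0% of the peaks from 5 to 10 kb had it (48 of 60, exact interval 67.7 to 89.2%), 37.0% of those from 10 to 20 kb (17 of 46, 23.2 to 52.5%) and 17.6% of those of 20 kb or more (3 of 17, 3.80 to 43.4%). In the middles of the other autosomes summed the shares were 61.0% (155 of 254), 55.3% (89 of 161) and 7.14% (2 of 28). At 5 to 10 kb the single middles differed, with 39.7% on I, 71.9% on II, 62.2% on IV and 71.7% on V. In the outer parts of III the share at 10 to 20 kb was not below that at 5 to 10 kb. On the left the shares at 5 to 10 and at 10 to 20 kb were 60.5% (26 of 43, 44.4 to 75.0%) and 64.3% (9 of 14, 35.1 to 87.2%). On the right they were 41.8% (23 of 55, 28.7 to 55.9%) and 68.2% (15 of 22, 45.1 to 86.1%).

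**Figure D3:**
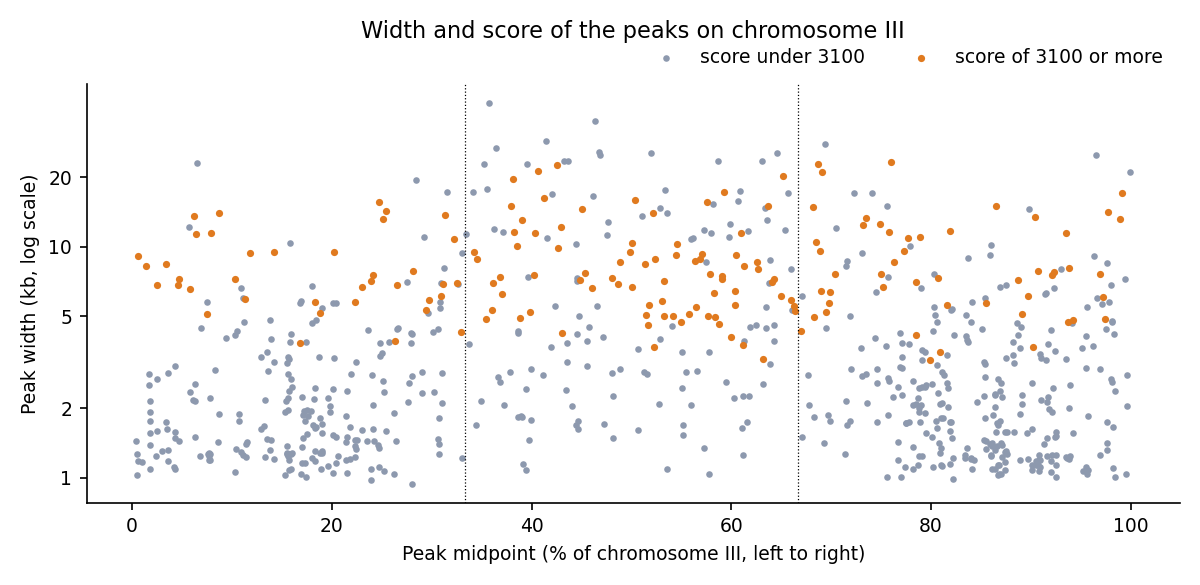
Width in kb on a log scale of each of the 796 peaks of III against its midpoint in percent of the chromosome, coloured by whether the authors' score was 3100 or more. Dotted lines divide the 3 parts. Peaks under 1.5 kb crowd the outer parts (87 and 89) and are few in the middle (8), and the 10 widest peaks of III all have scores under 3100.

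The flanks of III were not alike. The right had more peaks and more coverage than the left, with a left to right density ratio of 0.783 (interval 0.663 to 0.924; exact binomial test, two-sided, adjusted p = 0.00436 over the 5 autosomes) and a covered-share ratio of 0.678. The median width, left minus right, differed by -335.5 bp. The direction varied among the autosomes. The left was denser on I (1.44, adjusted p = 5.71e-06 by the same exact test) and IV (1.56, adjusted p = 5.71e-06), and the right was denser on II (0.572, adjusted p = 2.23e-08). V had a ratio of 1.19 (exact test, adjusted p = 0.0920). The left to right difference on III did not pass in every alternative. With peaks joined across gaps under 1 kb the ratio was 0.823 (exact test, adjusted p = 0.0859). Without the 250 kb bin from 11750001 to 12000000 it was 0.848 and did not pass (exact binomial test, adjusted p = 0.0686). That bin was picked as the one with most peaks on III and lies on the denser right. Its removal therefore had to raise the ratio, and does not show that the difference rests on it.

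Set beside the corresponding parts of the other autosomes, the right of III had the highest ratio of its 3 parts, though the ratios were not tested against each other. Its density was 1.78 times that of the right parts of I, II, IV and V summed (interval 1.56 to 2.02; exact binomial test, two-sided, adjusted p = 3.65e-17 over 3 tests) and its covered share 1.81 times theirs. The middle was 1.27 times as dense (1.08 to 1.48, exact test, adjusted p = 0.00456) and 1.51 times as covered. The left was 1.22 times as dense (1.06 to 1.40, exact test, adjusted p = 0.00505) and 1.20 times as covered. At 29.6%, the right of III was the most covered of the 10 outer parts of the autosomes, followed by the left of I at 28.1%. In density the left of I was higher, at 80.4 per Mb against 72.3 on the right of III. Beside I alone, the left of III was sparser (56.6 against 80.4 per Mb) and less covered (20.1% against 28.1%). The middles of III and I were close, at 44.4 and 45.3 per Mb and 37.6% and 37.8% covered. Leaving out the bin with most peaks, or any 1 of the other autosomes, gave density ratios for the right from 1.52 to 2.03.

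**Figure D4:**
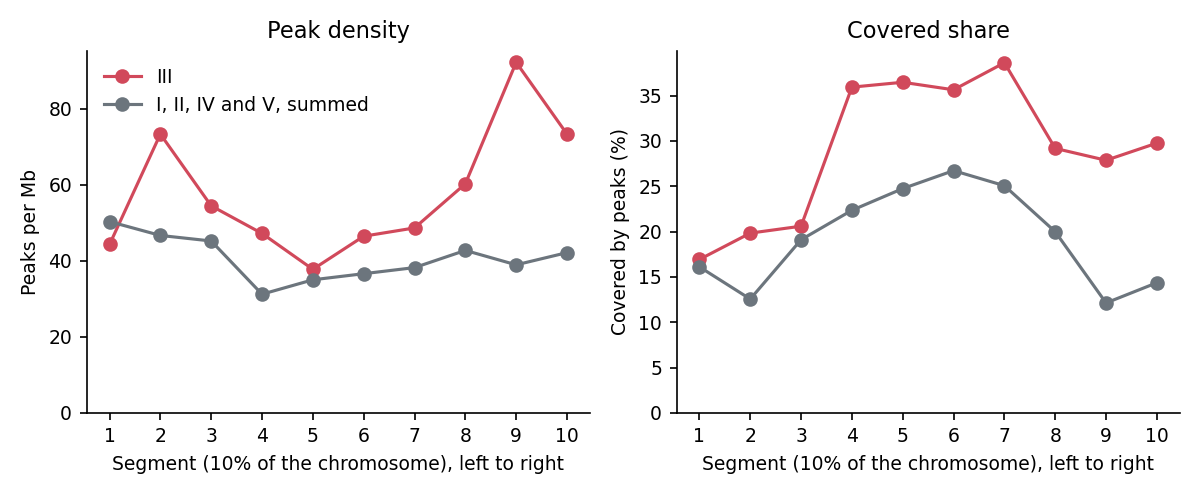
Peaks per Mb (left panel) and covered share in percent (right panel) in 10 equal segments of III, from left to right, beside the same segments of I, II, IV and V summed. III lies above the sum in coverage in all 10 segments and in density in 9 of 10, and the widest separation in density is in segment 9 (92.2 against 38.9 per Mb).

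A division into 10 equal segments of 1.38 Mb located these differences more closely. Coverage of III rose from 20.6% in segment 3 to 35.9% in segment 4, which starts 4.13 Mb from the left end, and stayed between 35.6% and 38.6% up to 9.64 Mb. It then stood at 29.2%, 27.9% and 29.8% in the last 3 segments. The number of peaks per Mb was highest in segments 2, 9 and 10, at 73.3, 92.2 and 73.3, and lowest in segment 5, at 37.7. In the first segment III had 44.3 peaks per Mb and the other autosomes 50.3, the only segment in which III was the lower. There the covered shares were 16.9% and 16.1%. In segments 7, 9 and 10, III was the densest and the most covered of the 5 autosomes. Its rank in segment 1 was 3 in both, and in segment 5 it was 1 in coverage and 4 in density.

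In bins of 250 kb, every full bin of III held at least 6 peaks. Its 55 full bins ranged from 8.97% to 52.8% covered, with a median of 27.7%, and held 6 to 42 peaks each. The minimum depended on the bins: it was 13.9% with bins of 500 kb and 0% with bins of 100 kb, at 2000001 to 2100000. The least covered bins of the other autosomes had 1.04% on I, 1.63% on II and 0% on IV and V. The most covered had 49.7% on I, 43.8% on IV, 43.4% on II and 25.3% on V. Bins covered by less than 10% numbered 2 of 55 on III and 65 of 272 on the other 4 together. By chromosome these were 3 of 60 on I, 12 of 60 on II, 16 of 69 on IV and 34 of 83 on V. Bins covered by 40% or more numbered 13 on III, 16 on I, 2 on II, 3 on IV and 0 on V. Of the 13 on III, 9 lay in the middle, 4 on the right and none on the left. III had 55 of the 327 full autosomal bins. It held 8 of the 20 most covered and 5 of those ranked in the top 20 by number of peaks, ties included. I, with 60 bins, held 11 in each ranking.

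**Figure D5:**
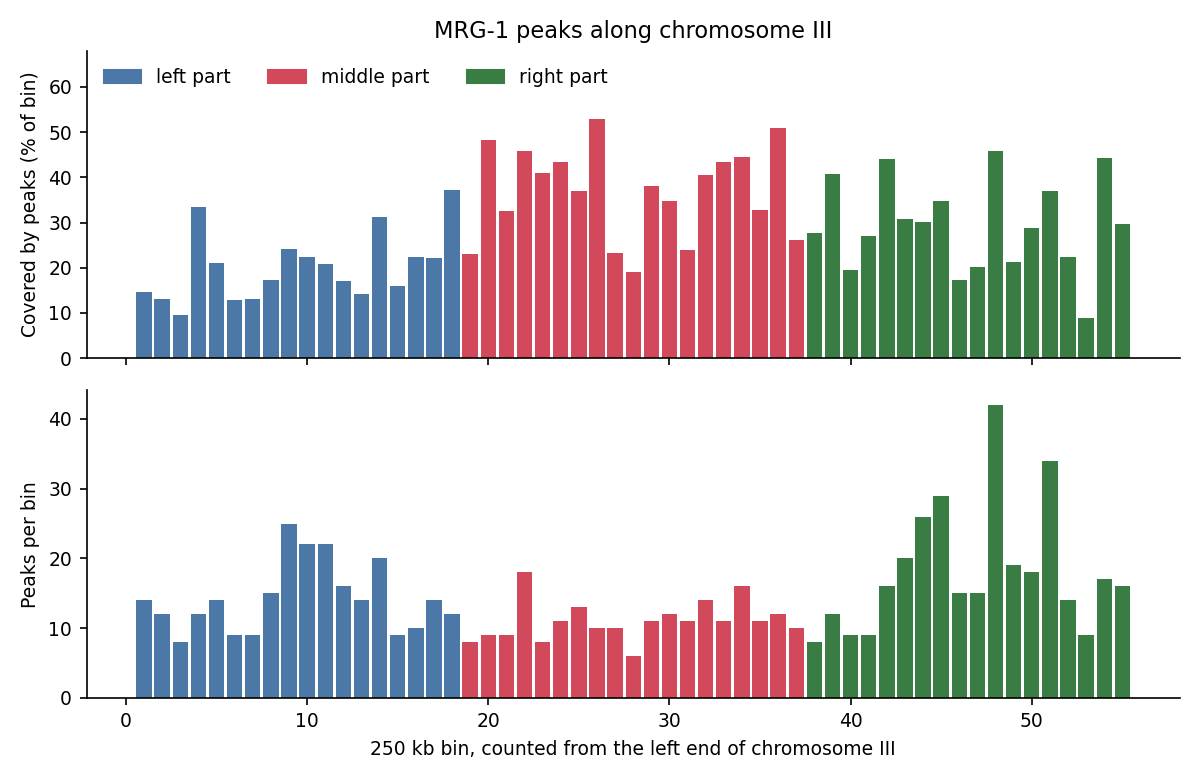
Covered share in percent (top) and number of peaks (bottom) in the 55 full 250 kb bins of III, from left to right, coloured by part. Coverage is highest in the middle, reaching 52.8% in bin 26, while the highest numbers of peaks are in bin 48 (42 peaks) and bin 51 (34 peaks) on the right.

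The most covered bins on III reached their coverage by different routes. The bin from 6250001 to 6500000, covered by 52.8%, was the most covered of all 327 autosomal bins and held only 10 peaks. Among them were peaks of 35117, 25656, 25068 and 16547 bp, and 1 of the 10 had the score 3100. Next came the bins from 8750001 to 9000000 (50.8%, 12 peaks), 4750001 to 5000000 (48.3%, 9 peaks) and 5250001 to 5500000 (45.9%, 18 peaks). The fifth, from 11750001 to 12000000, was also 45.9% covered but by 42 peaks with a median width of 1715 bp, 2 of them over 10 kb. Its peaks were close together, with a median gap of 626 bp. Other bins with many peaks, at 12500001 to 12750000 (34 peaks), 11000001 to 11250000 (29), 10750001 to 11000000 (26) and 2000001 to 2250000 (25), were covered by 36.9%, 34.8%, 30.1% and 24.1%. The highest coverage of a bin thus moved with where bins began: shifted by 50% of their length, the most covered bin was 4875001 to 5125000, at 59.3%.

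The 5 least covered bins of III lay towards its ends. They were 13000001 to 13250000 (8.97%, 9 peaks), 500001 to 750000 (9.56%, 8 peaks), 1250001 to 1500000 (13.0%, 9 peaks), 1500001 to 1750000 (13.1%, 9 peaks) and 250001 to 500000 (13.1%, 12 peaks). None held a peak of 10 kb or more. With bins shifted by 50% of their length, the least covered was 1625001 to 1875000, at 7.56%. The first peak of III spanned 57383 to 58820 and was 1438 bp wide. The last, from 13755572 to 13776675, was 21104 bp wide and scored 1497.18.

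The spacing of peaks on III showed many close neighbours and no very long interval. The median gap was 2984 bp, beside 4329 bp on the other autosomes summed and 2498 bp on I alone. On III it was 8419 bp with peaks joined across gaps under 1 kb and 13933.5 bp in the upper 50% by score. Over all peaks, 266 of the 795 gaps were under 1 kb (33.5%, exact interval 30.2 to 36.9%), 61 of them under 100 bp. On the other autosomes 30.7% of the gaps were under 1 kb (29.0 to 32.5%), and on I alone 38.0%. Such close gaps were 21.7% of those in the middle of III (interval 16.2 to 28.0%), 35.8% on the left (29.9 to 41.9%) and 38.9% on the right (33.6 to 44.3%). On each other autosome the middle also had the lowest share, at 26.8% on I, 15.6% on II, 18.3% on IV and 12.1% on V. The median gap in the middle of III was 8150 bp. Gaps over 50 kb numbered 24 on the left, 8 in the middle and 17 on the right. They made up 55.6%, 20.8% and 40.6% of the summed gap length there.

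The longest gap on III was 148 kb, from 1625995 to 1773881, while the longest on the other autosomes were 243 kb on II, 269 kb on I, 400 kb on V and 753 kb on IV. Other long gaps on III spanned 11345306 to 11487984 (143 kb), 1962513 to 2101930 (139 kb), 6734219 to 6864741 (131 kb) and 9710383 to 9837746 (127 kb). The remaining 5 of the 10 longest measured 107 to 126 kb and began at 647946, 3664733, 12980630, 2833864 and 1303379. The left held 6 of the 10, the right 3 and the middle 1. The gap that ended at 2101930 was followed directly by the densest 100 kb of III. There 24 peaks stood between 2101931 and 2201024, with a median width of 1949.5 bp, a summed width of 57.8 kb and no score of 3100. The densest 100 kb of the other autosomes held 25 peaks on I, 19 on II, 24 on IV and 18 on V.

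Peaks less than 1 kb from the next formed 159 runs on III, with 425 peaks, or 53.4% of the chromosome's total. The share in runs was 59.6% on I, 49.3% on IV, 43.6% on II and 40.9% on V. Most runs were short, with 103 pairs and 30 triplets, and 12 had 5 or more peaks. By position, 76 runs lay on the right, 50 on the left and 33 in the middle. The run with most peaks, 9 within 29.9 kb from 11751166 to 11781062, consisted of peaks of 1330 to 6030 bp, 1 of them with the score 3100. Runs of 8 peaks spanned 234435 to 252241 (1092 to 2814 bp) and 10398521 to 10445223 (1012 to 15093 bp), and the 3 runs of 6 spanned 2145210 to 2158303, 2518337 to 2533795 and 2764198 to 2789309.

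The longest runs were of another make, with few but broad peaks. The longest reached 60.2 kb from 4887712 to 4947914 and joined only 2 peaks, of 17878 and 41889 bp. The next, 59.2 kb from 6338067 to 6397275 and 56.7 kb from 6415541 to 6472245, joined 3 each. With the run of 8 at 10398521 (46.7 kb) and a pair at 4990757 to 5029616 (38.9 kb), they were the 5 longest, 4 of them in the middle. The longest runs elsewhere measured 56.5 kb on I, 40.9 kb on IV, 36.2 kb on V and 31.9 kb on II. Whether the parts of such a run are separate sites or 1 region called in pieces was not tested. Peaks on III whose nearest neighbour was 10 kb or more away numbered 80, with a median width of 5196 bp, and 32 of them scored 3100 or more. The 425 peaks with a neighbour within 1 kb had a median width of 2574 bp, and 70 of them, or 16.5%, had such a score. Position differed too: 38 of the 80 and 77 of the 425 lay in the middle, where peaks were wider. Spacing and position were not separated here.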

How the data were processed

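Per the submitters' processing notes, BWA was among the tools and ce10 was the build. Per the file headers, peaks have WormBase WS220 coordinates and MACS as source. The labels' protocols describe crosslinking of ground animals and sonication before ChIP. Settings of the caller, versions and the use made of the input were not given in the sources used here. Each peak's deposited score is a value of the authors with no stated scale, used only to describe peaks and for 1 alternative. Depth of either library is unknown here. Genome sequence of this build was not used here, so no peak sequence is shown.

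From starts and ends, widths, gaps and covered bases were computed in Python 3.11.15 with NumPy 2.4.6, pandas 2.3.3 and SciPy 1.17.1. Peaks were assigned to parts, segments and bins by midpoint, covered length base by base, gaps by their own midpoint. A final bin shorter than 250 kb was left out. Density ratios have 95% Clopper-Pearson intervals and two-sided exact binomial tests, adjusted by Benjamini-Hochberg (statsmodels 0.14.6). The density-ratio function was tested on simulated independent counts, and those for coverage, gaps, runs, bins and parts on a small made-up set of peaks. The simulated counts had no clustering, so they cannot show how the intervals behave for clustered peaks. No test was made of widths, gaps or coverage. Named regions on III were the 10 widest and 5 narrowest peaks, the 5 most and least covered bins and those with most peaks, the 10 longest gaps, the 5 runs with most peaks (and 1 more tied with the last) and the 5 longest, and the first and last peak. On each other autosome the widest peak, most covered bin and longest gap were named. Least covered bins, longest runs and the densest 100 kb there, the 10 segments and the score shares were added after values were seen. So were the parts of III against those of other autosomes and both Fisher tests. The members, lists and alternatives were chosen with earlier results of these data known.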

Additional observations from a re-analysis of the deposited data

How the results depend on the processing

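The list comes from 1 library, chromosome ends are lower bounds, and binding below the unknown calling threshold is not seen. No paired analysis was possible because ChIP and input were single libraries. The density of III over the other autosomes was 1.42 and kept its direction and its call in all 8 alternatives, from 1.24 without V to 1.64 without I. Its covered-share ratio (1.51) was 1.49 in the upper 50% by score, 1.38 without the widest 5%, and 1.77, 1.55, 1.48 and 1.28 without I, II, IV or V. The lower density of the middle (0.689) turned round in the upper 50% by score (1.24), which drops mainly narrow peaks, missed the test after merging (0.865) and passed without the widest 5% (0.584) and with a central 50% (0.618). The middle's covered-share ratio (1.51) was 1.67 in the upper 50%, 1.40 with a central 50% and 0.9998 without the widest 5%. Of the 53 peaks of III left out in that last alternative, 36 lay in the middle. The left to right density ratio (0.783) missed the test after merging (0.823) and without the bin with most peaks (0.848), an alternative chosen after seeing the data. It passed in its other 3 alternatives. Its covered share (0.678) was 0.660 in the upper 50%, 0.764 without the widest 5%, 0.616 for outer parts of 25% and 0.700 without that bin. The density of the right of III over other right ends passed in all 8 alternatives, all chosen after seeing the data. The middle's median width exceeded that of the outer parts by 3987.5 bp, by 1792 bp in the upper 50%, 3333 bp after merging and 3433.5 bp with a central 50%. The median gap (2984 bp) was 13933.5 bp in the upper 50%, 8419 bp after merging and 3052 bp without the widest 5%. The most and least covered bins (52.8% and 8.97%) were 59.3% and 7.56% with bins shifted by 50% of their length, 44.9% and 13.9% with bins of 500 kb, and 69.0% and 0% with bins of 100 kb. Causes of these changes were not tested.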

Other observations

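The widths of neighbouring peaks on III had a Spearman rho of 0.238 over 795 pairs. The values were 0.293 on I, 0.342 on II, 0.254 on IV and 0.263 on V. Coverage of neighbouring 250 kb bins had a rho of 0.277 over 54 pairs on III. Between the number of peaks in a bin and its coverage, rho was 0.193 on III over 55 bins, 0.295 on I, 0.576 on II, 0.712 on IV and 0.771 on V. Within the parts of III it was 0.505 on the left, 0.423 in the middle and 0.585 on the right. All these points share 1 library and, for bins, a chromosome, so the correlations are descriptions and carry no test. From the left, 50% of the covered length of III was reached at 54.4% of its length and 50% of its peaks at 57.0%.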
